A study of Mus musculus with 9 samples.

Results

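The genes described here encode receptors and soluble partners with which phagocytes bind and take up dying cells, modified lipoproteins and microbes. They are 10 named genes (Gas6, Mertk, Axl, Timd4, Stab2, Lrp1, Cd36, Msr1, Marco and Cd5l), and all 10 were found among the 50508 gene symbols of the count table. They were followed across 9 RNA libraries, 3 from TDC, 3 from conventional dendritic cells (DC) and 3 from conventional T cells, each sorted from pooled mouse spleens at an age of 8 weeks. TDC is the submitters' name for the cells in question, and DC and T cells were the controls. Every mouse, those of the controls included, was naive, untreated and homozygous for Zbtb46-GFP, a reporter that places green fluorescent protein at a locus used by conventional DC, so no library came from animals without the reporter. Replicate 1 of each population came from 5 pooled mice and replicates 2 and 3 from 6 pooled mice. The sources used here do not give the sort gates.

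Cells that die by apoptosis expose phosphatidylserine on their outer surface. Some receptors bind this lipid directly, as TIM-4 (Timd4) and stabilin-2 (Stab2) do, whereas the receptor tyrosine kinases MerTK and AXL reach it through the bridging protein GAS6. LRP1 takes up many ligands, calreticulin and plasma protease complexes among them, and the scavenger receptors CD36, MSR1 and MARCO bind oxidised lipids, modified lipoproteins or bacteria. CD5L is a soluble scavenger receptor protein that tissue macrophages secrete. In the spleen such genes are best known from macrophages of the red pulp and the marginal zone, which remove aged red cells, apoptotic lymphocytes and blood-borne particles.

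The 250 bases before the RefSeq start (GRCm38.p6) are shown for 5 of the 10 genes. These are both receptors of Gas6 (Mertk and Axl), the phosphatidylserine receptor Timd4, the scavenger receptor Marco, and Cd36, which ran the other way against DC. The stretches are chr2:128698665-128698914 (plus strand) for Mertk, chr7:25788734-25788983 (minus strand) for Axl, chr11:46810549-46810798 (plus strand) for Timd4, chr1:120505025-120505274 (minus strand) for Marco and chr5:17835897-17836146 (minus strand) for Cd36, whose RefSeq start lies inside the gene's GENCODE span. Each is written 5′ to 3′ on the gene's own strand, and capitals mark matches to the searched motifs on either strand.
Mertk: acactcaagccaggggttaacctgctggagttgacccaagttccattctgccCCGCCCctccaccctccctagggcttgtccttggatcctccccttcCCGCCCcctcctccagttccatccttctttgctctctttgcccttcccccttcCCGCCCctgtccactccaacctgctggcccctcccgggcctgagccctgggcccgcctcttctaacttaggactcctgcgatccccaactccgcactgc
Axl: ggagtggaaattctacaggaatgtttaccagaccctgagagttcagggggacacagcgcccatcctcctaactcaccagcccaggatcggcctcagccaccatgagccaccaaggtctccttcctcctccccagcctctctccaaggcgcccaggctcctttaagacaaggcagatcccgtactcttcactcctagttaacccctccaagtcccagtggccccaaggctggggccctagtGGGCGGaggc
Timd4: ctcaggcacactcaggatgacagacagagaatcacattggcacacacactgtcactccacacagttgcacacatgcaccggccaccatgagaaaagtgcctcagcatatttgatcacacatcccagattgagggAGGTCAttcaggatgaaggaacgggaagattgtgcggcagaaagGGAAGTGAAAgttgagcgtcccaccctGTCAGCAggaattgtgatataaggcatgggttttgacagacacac
Marco: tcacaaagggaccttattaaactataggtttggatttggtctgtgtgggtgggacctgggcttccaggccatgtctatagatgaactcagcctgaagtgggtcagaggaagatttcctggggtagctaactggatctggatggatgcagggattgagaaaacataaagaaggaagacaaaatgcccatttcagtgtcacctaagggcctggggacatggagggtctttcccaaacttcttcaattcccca
Cd36: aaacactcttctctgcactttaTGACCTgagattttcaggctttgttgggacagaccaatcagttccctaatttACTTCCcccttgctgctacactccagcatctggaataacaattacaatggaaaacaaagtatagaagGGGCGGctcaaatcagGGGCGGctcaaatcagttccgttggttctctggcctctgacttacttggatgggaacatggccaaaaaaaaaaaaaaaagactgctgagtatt
The motifs searched, on both strands, were the GC box (GGGCGG), the ETS core read by PU.1 (GGAAGT), the ETS-IRF composite element (which overlaps the ETS core in some matches), the MAF site core (TGCTGAC), the nuclear receptor core (AGGTCA) and the TATA box (TATAAA). The RefSeq table held a stretch for 9 of the 10 genes. The GC box was found in 5 of the 9, against 32.7% of 32851 mouse promoters of the same length. Mertk had 3 GC boxes, starting 198, 152 and 99 bases before the start, and Axl had 1 at 10 bases. Timd4 carried GGAAGTGAAA at 72 bases before the start, which matches both the ETS core and the ETS-IRF composite. The composite was found in Timd4 and Stab2, 2 of 9, against 2.3% of all promoters. The ETS core was in 2 of 9 (Timd4 and Cd36) against 19.7%, and the MAF site core in 1 of 9 (Timd4) against 3.81%. The nuclear receptor core was in 3 of 9 against 14%, and the TATA box in 0 of 9 against 12.4%. The stretches of Marco and Cd5l matched no searched motif and held 0 CpG dinucleotides, while the other 7 held 3 to 13. These matches describe letters only. The genes and motifs were chosen with earlier results of these data or the sequences known, so the shares cannot test enrichment.

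Reads assigned to genes numbered 14594850 to 22677130 in TDC libraries, 14973484 to 25676640 in DC and 10986544 to 18071425 in T cells. Levels are CPM, counts scaled to a common library size with TMM factors. Since the libraries read the 3′ end of each transcript, levels are compared here only between libraries of the same gene. A total of 3 reads over a group corresponded to 0.0706 in TDC, 0.0524 in DC and 0.0557 CPM in T cells, a limit that covers counting error only. The test throughout is edgeR's quasi-likelihood F test, Benjamini-Hochberg adjusted over 14708 genes, and a gene is called at an adjusted p under 0.05.

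The sorted populations were checked against marker genes of spleen cells. Summed over 8 T cell markers, TDC libraries held 84.0 to 259 CPM, DC libraries 0.775 to 5.43 CPM and T cell libraries 6911 to 9635 CPM. Summed over 8 markers of conventional DC, the range was 181 to 475 in TDC, 2072 to 3185 in DC and 99.96 to 179 CPM in T cells. Dpp4 made up most of the T cell sums, at 173, 95.9 and 98.4 CPM, against 27.1, 32.8 and 101 in TDC. Of these 8 markers, 7 were called higher in TDC than in T cells and 6 lower than in DC. All 8 T cell markers were called lower in TDC than in T cells and higher than in DC. Over all genes, 21.8% were called higher and 11.2% lower than in T cells, and 9.55% higher and 4.6% lower than in DC. Summed over 10 genes of red pulp macrophages (among them Adgre1, Vcam1, Spic and Hmox1), the range was 50291 to 73484 in TDC, 429 to 772 in DC and 1.97 to 7.98 CPM in T cells, and each of the 10 was called higher in TDC than in both controls. The 6 erythroid markers found in the table summed to 597 to 2070.4 in TDC, 1.49 to 22.4 in DC and 0.494 to 1.18 CPM in T cells. Markers of stromal fibroblasts summed to 2.42 to 11.4 in TDC, 0 to 0.0596 in DC and 0 to 0.352 CPM in T cells, and those of neutrophils to 0.298 to 64.7, 0 to 2.58 and 0 to 0.422 CPM in the same order. Markers of B cells summed to 74.2 to 129 in TDC, 207 to 281 in DC and 14.8 to 32.7 CPM in T cells, and those of plasma cells to 7.47 to 20.6, 0.715 to 20.1 and 1.55 to 6.72 CPM. Macrophage and erythroid marker levels thus moved with the clearance genes, and their part in the results below was not tested. In such bulk libraries fewer cells of a type and less RNA per cell cannot be told apart.

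**Figure D1:**
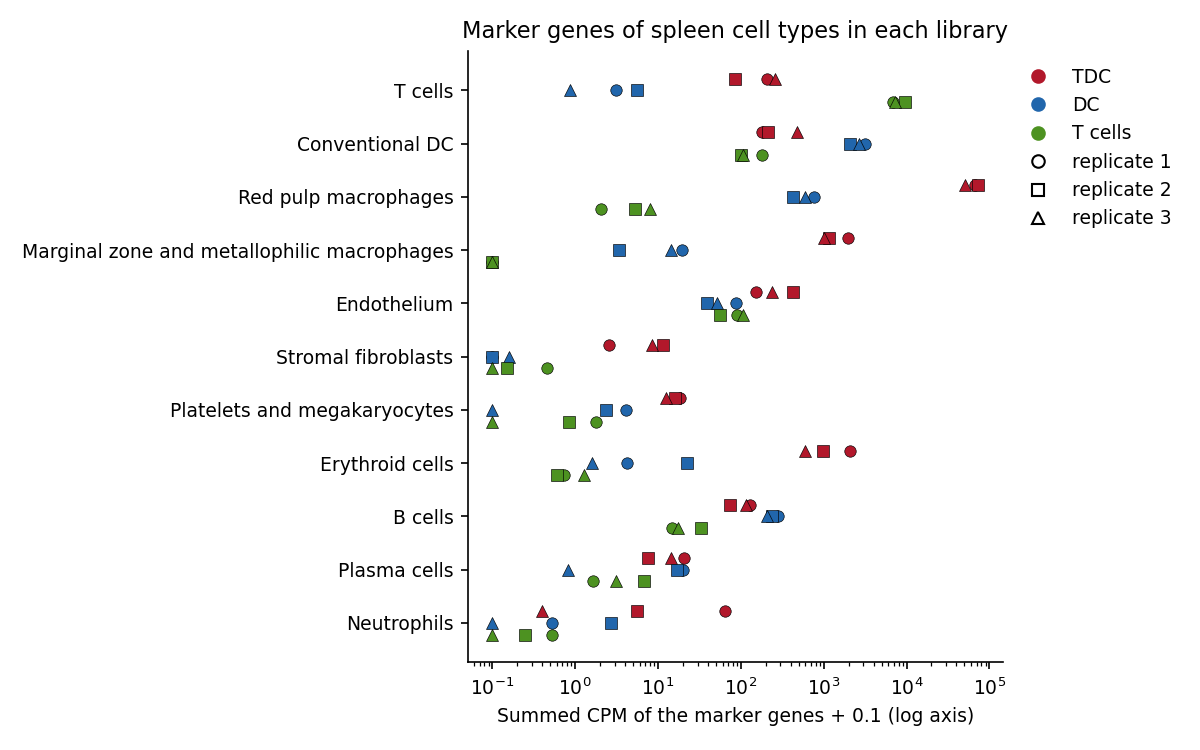
Summed CPM of marker genes of 11 spleen cell types (rows) in each library, on a log axis after adding 0.1 CPM; colour gives the population and symbol shape the replicate. Red pulp macrophage markers reach 50291 to 73484 CPM in TDC, while T cell and DC markers of TDC libraries lie below those of the matching control.

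TDC exceeded DC in 9 of the 10 genes, and Cd36 alone was lower. Among all genes tested, 9.55% were called higher and 4.6% lower in that comparison (14.1% either way). All 10 exceeded their T cell level, where 21.8% of all genes were called higher, 11.2% lower and 33% either way. They took 0.644%, 1.16% and 0.734% of all reads in TDC replicates 1, 2 and 3, against 0.0224%, 0.0112% and 0.0248% in DC, and 12, 49 and 3 reads in total in T cells. No gene of the 10 had a DC library within its range of TDC libraries (9 higher and 1 lower, against 20.1% higher, 14.8% lower and 34.9% either way over all genes). The same held for T cell libraries (10 higher, against 29.6% higher, 22.4% lower and 52% either way). All 10 passed the filter on low counts, most of them through the TDC libraries alone, so these counts describe the chosen genes and nothing beyond them. Both comparisons share the TDC libraries.

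**Figure D2:**
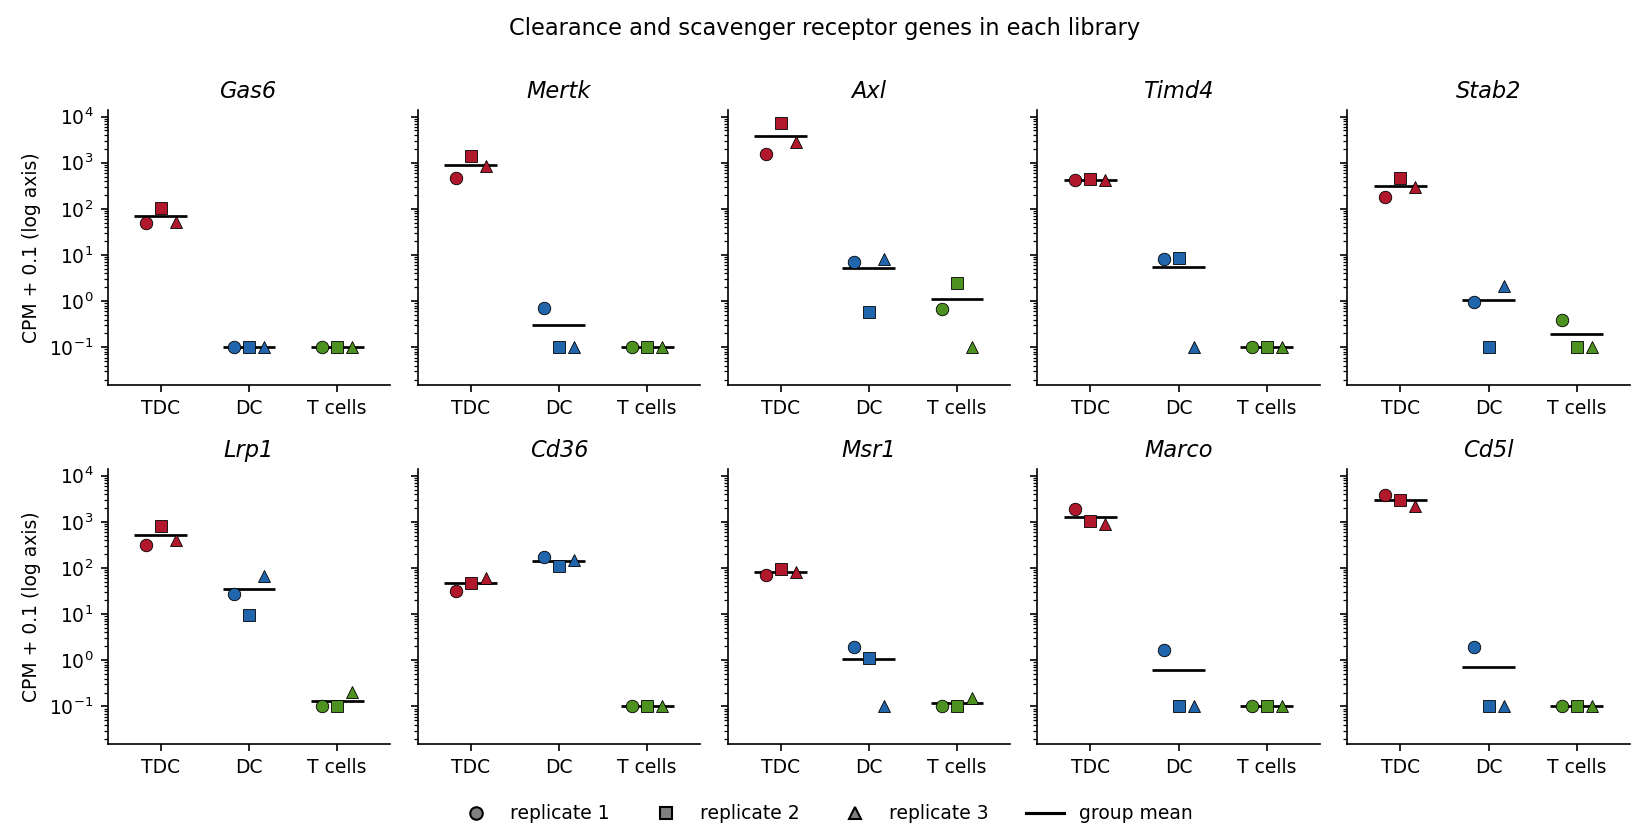
CPM of each gene in each library after adding 0.1 CPM, on a log axis, for TDC, DC and T cells from left to right; points are libraries, and points at 0.1 have no reads. All TDC libraries lie above all DC libraries except for Cd36, where TDC lie at 31.5 to 61.8 CPM and DC at 109.5 to 171 CPM.

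Gas6 (GRCm38 chromosome 8, 13465374 to 13494490, minus strand) encodes the ligand that joins phosphatidylserine to MerTK and AXL. It was at 48.6, 106 and 52.7 CPM in TDC replicates 1, 2 and 3, and no DC or T cell library held a read of it. Among TDC, replicate 2 stood above replicates 1 and 3. The mean of 69.2 ± 32.2 CPM (SD, n = 3) was at least 1321-fold higher than in DC (adjusted p = 0.000646) and at least 1244-fold higher than in T cells (adjusted p = 0.000154). Gas6 overlaps exons of Tmem255b on the opposite strand, and Tmem255b had no reads in any library.

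Mertk (chromosome 2, 128698956 to 128802894, plus strand) encodes a receptor of GAS6 that triggers engulfment. It was at 467, 1366 and 831 CPM in TDC, against 0.612, 0 and 0 in DC, and T cells had no reads. All 16 reads of the DC group came from replicate 1. The TDC mean was 888 ± 452 CPM (SD, n = 3), a log2 fold change of 11.77 over DC (SE 1.21, adjusted p = 0.000761). It was at least 15945-fold higher than in T cells (adjusted p = 0.000119).

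Axl (chromosome 7, 25757273 to 25788705, minus strand), the other GAS6 receptor gene of the set, was at 1547, 7325 and 2749 CPM in TDC, against 7.12, 0.488 and 8.17 in DC and 0.563, 2.42 and 0 in T cells. TDC replicate 2 stood 4.73-fold above TDC replicate 1, the widest span of the 10 genes among TDC libraries. The groups nevertheless differed by more than that spread, with a log2 fold change of 9.51 over DC (SE 1.51, adjusted p = 0.00257) and of 11.89 over T cells (SE 1.66, adjusted p = 0.000415). DC and T cell libraries overlapped, and Axl was not called between them (log2 fold change of DC over T cells 2.38, SE 1.17, adjusted p = 0.178).

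Tyro3, the remaining receptor of this family, had reads in TDC replicate 3 (1.04 CPM) and in no other TDC library, none in DC, and 2.04, 3.41 and 1.70 CPM in T cells. It was not called in TDC against DC (adjusted p = 0.141) or T cells (adjusted p = 0.237). Pros1, which encodes the bridging protein S, was at 15.1, 41.2 and 34.6 CPM in TDC, against 4.98, 3.83 and 7.69 in DC and 4.15, 0.840 and 0 in T cells. It was called higher in TDC than in T cells (adjusted p = 0.0213) and was not called against DC (log2 fold change 2.46, SE 1.10, adjusted p = 0.175), although TDC and DC libraries did not overlap. Both genes were named after their values were seen.

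Timd4 (chromosome 11, 46810800 to 46844332, plus strand) encodes TIM-4, a tethering receptor for phosphatidylserine. It varied least of the 10 among TDC libraries, with 422, 445 and 422 CPM, against 8.11, 8.43 and 0 in DC, and T cells had no reads. The highest TDC library was 1.06-fold above the lowest. The log2 fold change over DC was 6.28 (SE 1.26, adjusted p = 0.0128), and the call ended when low counts were not filtered (adjusted p = 0.140). The mean of 429.7 ± 13.4 CPM (SD, n = 3) was at least 7717-fold higher than in T cells (adjusted p = 0.000778).

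Stab2 (chromosome 10, 86841198 to 87008025, minus strand) encodes stabilin-2, a receptor for phosphatidylserine and hyaluronan known from sinusoidal endothelium. It was at 182, 475 and 295 CPM in TDC, against 0.880, 0 and 2.03 in DC and 0.281, 0 and 0 in T cells. The log2 fold change was 8.33 over DC (SE 1.14, adjusted p = 0.00130). With 4 reads in T cells, the ratio of TDC to T cells was 4597 (95% counting interval 1795 to 16874, adjusted p = 0.000140). Ratios given with a counting interval use reads pooled over each group, and the interval leaves out the spread between libraries. Of 10 endothelial markers, Tek, Tie1, Emcn and Egfl7 had no reads in TDC and Cdh5 had 8 reads over the group. Clec4g, Kdr and Plvap had 3, 13 and 26 reads over the TDC group, against 267, 239 and 224 over the DC group. Clec4g was called lower in TDC than in DC (adjusted p = 0.0327), Kdr was not called (adjusted p = 0.204) and Plvap did not pass the filter. Pecam1 and Lyve1, which other cells also use, had 142 to 385 CPM and 7.18 to 44.1 CPM in TDC. In DC they had 28.9 to 67.8 CPM and 0 to 0.0697 CPM, and both were called higher in TDC (adjusted p = 0.00774 and 0.00165). The list summed to 150.1 to 430 in TDC, 39.2 to 86.5 in DC and 55.7 to 106 CPM in T cells, and the part of endothelium in the Stab2 values was not tested. An antisense gene that overlaps exons of Stab2, Gm16268, had 16, 7 and 9 reads in the TDC libraries, against 2026, 8525 and 3952 for Stab2.

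Lrp1 (chromosome 10, 127538161 to 127621148, minus strand) encodes a large endocytic receptor of many ligands. It was at 319, 829 and 401 CPM in TDC, against 27.4, 9.54 and 65.6 in DC and 0, 0 and 0.103 in T cells. Every DC library held reads of it, as for Axl and Cd36. The log2 fold change of TDC over DC was 3.92 (SE 0.73, adjusted p = 0.00571). With 2 reads in T cells, the ratio of TDC to T cells was 15082 (95% counting interval 4175 to 124543, adjusted p = 2.47e-05). That of DC to T cells was 918 (95% counting interval 254 to 7590, adjusted p = 0.000147).

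Cd36 (chromosome 5, 17781690 to 17888801, minus strand), a scavenger receptor gene whose product binds oxidised lipids and thrombospondin, was the only gene of the 10 that was lower in TDC than in DC. It was at 31.5, 47.3 and 61.8 CPM in TDC, against 171, 109.5 and 145 in DC, and T cells had no reads. The groups did not overlap, and the log2 fold change of TDC over DC was -1.60 (SE 0.37, adjusted p = 0.0227). This call ended without TDC replicate 1 (adjusted p = 0.0613) or 2 (adjusted p = 0.0889), or without DC replicate 1 (adjusted p = 0.0817) or 3 (adjusted p = 0.0509). The call also ended in the fit with the replicate number as a block, given at the end of the text. The TDC mean of 46.9 ± 15.1 CPM was at least 842-fold higher than in T cells (adjusted p = 9.95e-06), and the DC mean of 142 ± 30.9 CPM (SD, n = 3 each) was at least 2550-fold higher (adjusted p = 1.06e-05). Platelets also carry CD36. Of 6 platelet markers, Pf4 was at 18.04, 15.2 and 12.2 CPM in TDC and 0.268, 0.557 and 0 in DC (adjusted p = 0.0140), whereas Itga2b was at 0.449, 0.390 and 0 CPM in TDC and 3.22, 1.25 and 0 in DC and was not called (adjusted p = 0.450). Over the group, Gp9 had 4 reads in TDC and 11 in DC, Gp6 had 0 and 9, Ppbp had 4 and 0, and Gp1bb had no reads in either. The platelet list summed to 12.3 to 18.5 in TDC, 0 to 4.02 in DC and 0 to 1.69 CPM in T cells, mostly Pf4 in TDC, and the part of platelets in the Cd36 values was not tested.

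The class A scavenger receptor gene Msr1 (chromosome 8, 39581685 to 39642673, minus strand) was at 70.8, 93.6 and 80.3 CPM in TDC, against 1.88, 1.05 and 0 in DC and 0, 0 and 0.0515 in T cells. TDC libraries lay close together and far above DC (log2 fold change 6.34, SE 0.99, adjusted p = 0.00234). With 1 read in T cells, the ratio of TDC to T cells was 4496 (95% counting interval 806 to 177625, adjusted p = 0.000153).

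Marco (chromosome 1, 120474538 to 120505024, minus strand) encodes the other class A receptor of the set, which binds bacteria and marks marginal zone macrophages. It was at 1900, 1032 and 901 CPM in TDC, against 1.57, 0 and 0 in DC, and T cells had no reads. The order of its TDC libraries differed from that of Axl, with replicate 1 highest. The log2 fold change over DC was 11.06 (SE 1.44, adjusted p = 0.00196), and the mean was at least 22948-fold higher than in T cells (adjusted p = 0.000328). Of the other markers of marginal zone and metallophilic macrophages, Cd209b was at 15.4, 46.9 and 32.4 CPM in TDC and 17.6, 3.27 and 14.2 in DC and was not called between them (adjusted p = 0.226). Siglec1 was at 29.9, 88.9 and 62.6 CPM in TDC and 0.230, 0 and 0 in DC (adjusted p = 0.00127). The list of 3, Marco included, summed to 996 to 1945 CPM in TDC, 3.27 to 19.4 CPM in DC and 0 in T cells.

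Cd5l (chromosome 3, 87357881 to 87371073, plus strand), whose product is secreted, was at 3876, 2976 and 2187 CPM in TDC, against 1.84, 0 and 0 in DC, and T cells had no reads. As for Marco and Mertk, every read of the DC group came from replicate 1. The log2 fold change over DC was 12.09 (SE 1.53, adjusted p = 0.00172), and the mean of 3013 ± 845 CPM (SD, n = 3) was at least 54110-fold higher than in T cells (adjusted p = 0.000292).

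**Figure D3:**
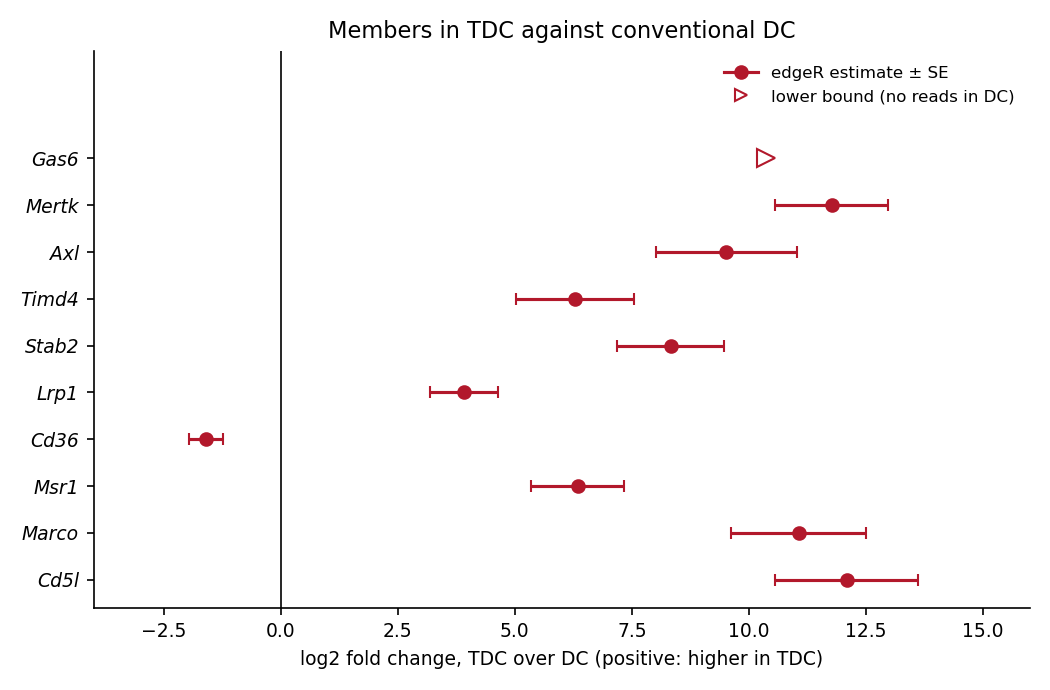
Log2 fold change of TDC over DC for each gene, as the edgeR estimate with its SE, with the lower bound given for Gas6, which had no reads in DC. Cd36, at -1.60, is the only gene below 0, and Lrp1, at 3.92, is the nearest to 0 of the others.

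DC libraries differed in which of the genes they held. DC replicate 1 had reads of 9 of the 10 genes, replicate 2 of 5 and replicate 3 of 4. Replicate 1 was also the deepest DC library, with 25676640 reads against 16467028 and 14973484 in replicates 2 and 3. Set against the TDC mean, DC replicate 1 held 0.0690% of the level of Mertk, 0.0610% of Cd5l and 0.123% of Marco, while replicates 2 and 3 held none. Timd4 and Msr1 were at 1.89% and 2.30% of the TDC mean in DC replicate 1, at 1.96% and 1.28% in replicate 2, and without reads in replicate 3. Lrp1 was at 5.30%, 1.85% and 12.7% of its TDC mean, and Cd36 at 365%, 234% and 310%. Red pulp macrophage markers took no common share either, running in DC replicate 1 from 0.0336% (Slc40a1) to 9.53% (Adgre1) of their TDC mean. The part of other cells in the DC libraries was not tested.

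Between the controls, 4 of the 10 genes were higher in DC than in T cells and 0 were lower, where 15.4% of all genes were called higher, 8.41% lower and 23.8% either way. These were Cd36, Lrp1, Timd4 (adjusted p = 0.0127) and Msr1 (adjusted p = 0.0185). Of the 10 genes, 2 (Cd36 and Lrp1) had no overlap between DC and T cell libraries, against 21.8% higher, 17.9% lower and 39.8% either way over all genes. The Msr1 call ended without DC replicate 1 or any T cell replicate (adjusted p = 0.0538 to 0.0752) and with limma-voom (adjusted p = 0.143). The Timd4 call ended with limma-voom (adjusted p = 0.0769) and when low counts were not filtered (adjusted p = 0.131). Without DC replicate 2, 7 of the 10 were called, and without DC replicate 3, 6.

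The TDC libraries did not rank the genes alike. Axl, Lrp1, Mertk, Gas6 and Stab2 were highest in replicate 2, where they lay 0.99 to 1.77 log2 units above the mean of replicates 1 and 3. Timd4 and Msr1 were also highest in replicate 2, by less. Timd4, Cd36 and Cd5l lay within 0.08 log2 units of the mean of replicates 1 and 3, Msr1 at 0.31, and Marco at -0.44. Transcript length moved with this order in part. The longest annotated transcripts of Marco, Cd5l and Timd4 have 1925, 2036 and 2173 bases, those of Cd36 and Msr1 3399 and 3636 bases, and those of Axl, Mertk, Stab2 and Lrp1 4265, 4302, 8228 and 14888 bases. Gas6, at 2548 bases, departed from it. The same difference was taken over all genes with at least 10 CPM in TDC. Its median was -0.64 log2 units for 953 genes with transcripts under 1500 bases, shorter than those of all 10 genes. It was 0.43 for 1167 genes with 6000 bases or more, where Stab2 and Lrp1 lay at 0.99 and 1.20. The class of Axl, Mertk, Msr1 and Cd36 had a median of 0.23 (2514 genes), against 1.77, 1.07, 0.31 and 0.02 for these genes. The class of Gas6, Timd4, Cd5l and Marco had a median of -0.25 (2700 genes), against 1.06, 0.08, -0.03 and -0.44. In DC the shortest and longest classes ran the other way. Their medians were 1.20 for 908 genes under 1500 bases and -0.48 for 1119 genes of 6000 bases or more. Axl and Lrp1 were lowest in DC replicate 2, at -2.54 and -2.17. Timd4, at 0.90, lay above the DC median of its class, 0.23 (2592 genes). Cd5l and Marco, of the same class, lay below that median, at -0.94 and -0.84. These genes had 48 and 41 reads in DC, all in replicate 1. In T cells these outer classes also ran opposite to TDC, with 0.64 for 940 genes under 1500 bases and -0.13 for 1014 genes of 6000 bases or more. The part of length or RNA quality in these values was not tested, and the length classes were set after the values were seen. Without TDC replicate 2, 9 of the 10 genes were still called higher in TDC than in DC.

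**Figure D4:**
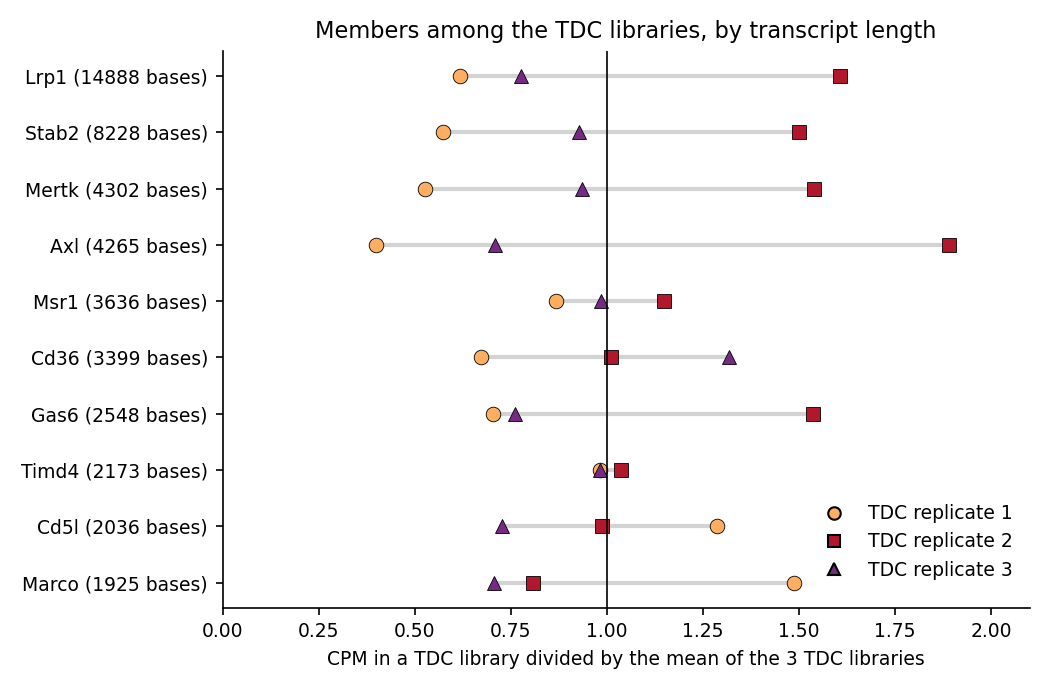
CPM of each gene in each TDC library divided by its mean over the 3 TDC libraries, with genes ordered by the length of their longest annotated transcript. Replicate 2 is highest for the 4 genes with the longest transcripts and also for the shorter Timd4, Gas6 and Msr1. Replicate 1 is highest for Marco and Cd5l, which have the shortest, and replicate 3 for Cd36.

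Other genes of the clearance pathway were taken from lists. Of 17 further receptors and bridging proteins, 13 passed the filter, and TDC exceeded DC in 3 and fell below them in 1, and exceeded T cells in 10 and fell below them in 1. Over all genes tested, 9.55% were called higher and 4.6% lower in TDC against DC, and 21.8% higher and 11.2% lower against T cells, and the same shares stand behind the counts of the lists that follow. The median log2 fold change of the 13 was 2.46 over DC, against 0.01 for all genes tested. Itgb5, a chain of the integrin that binds the bridging protein MFG-E8, was at 573, 1228 and 670.5 CPM in TDC, against 10.4, 4.46 and 4.77 in DC and 0.141, 0.395 and 0 in T cells (log2 fold change over DC 6.97, SE 0.73, adjusted p = 0.000360). Cd300lb, a myeloid receptor of the CD300 family, was higher in TDC, at 104, 127 and 101 CPM, than in DC, at 27.02, 7.45 and 10.97 CPM (adjusted p = 0.00851), and T cells had no reads. Itgb3, which encodes another integrin chain, was lower in TDC, at 0.269, 1.90 and 1.94 CPM, than in DC, at 18.6, 12.3 and 26.3 CPM (adjusted p = 0.00515), and T cells, at 26.02, 18.96 and 33.5 CPM (adjusted p = 0.00120). The third higher gene was Trem2, a lipid receptor, at 0.969 to 1.26 CPM in TDC without reads in DC or T cells (adjusted p = 0.0267 against DC), named after its values were seen.

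Of 19 further scavenger receptors, 14 passed the filter, with 6 higher and 0 lower in TDC than in DC and 11 higher and 0 lower than in T cells. Their median log2 fold change over DC was 1.92. Mrc1, the macrophage mannose receptor, was at 634, 2465 and 1031 CPM in TDC, against 2.87, 0.279 and 0.238 in DC and 0.281, 0.346 and 0.258 in T cells (log2 fold change over DC 10.16, SE 1.11, adjusted p = 0.000436). Cd14, a coreceptor for lipopolysaccharide that also binds apoptotic cells, was at 1938, 789.6 and 561 CPM in TDC and 10.7, 18.4 and 12.3 in DC (adjusted p = 0.000571), and T cells had no reads. Scarb2, a lysosomal membrane protein of the CD36 family, was at 425, 312 and 289 CPM in TDC and 83.4, 69.3 and 73.99 in DC (adjusted p = 0.00107), the opposite direction to Cd36. The endosomal scavenger receptor gene Cd68 had 3438, 2158 and 1549 CPM in TDC, against 477, 821 and 417 in DC (adjusted p = 0.00770) and 7.10, 7.41 and 4.58 in T cells (adjusted p = 4.34e-06).

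Of 16 genes of the engulfment machinery inside the cell, 15 passed the filter, with 2 higher and 0 lower in TDC than in DC and 7 higher and 1 lower than in T cells, and a median log2 fold change over DC of 0.35. Against the 9.55% of all genes called higher over DC, 2 of 15 is not set apart. The higher genes were Abca1, a lipid exporter, at 103, 213 and 164 CPM in TDC and 2.11, 0.488 and 0.417 in DC (adjusted p = 0.000360), and Lrpap1, the chaperone of LRP1 and related receptors, at 174, 145 and 140.1 CPM in TDC and 62.5, 83.1 and 48.3 in DC (adjusted p = 0.0191). Elmo1, which acts in Rac activation, had 128, 256 and 219 CPM in TDC and 350.4, 475 and 399.9 in DC and was not called (log2 fold change -1.02, SE 0.35, adjusted p = 0.0795). Dock1, the exchange factor that works with ELMO proteins, was at 10.1, 53.2 and 12.2 CPM in TDC and 5.93, 3.48 and 20.5 in DC and was not called (adjusted p = 0.377), whereas T cells had no reads (adjusted p = 0.000941).

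Of 10 signals by which dying or living cells attract, invite or refuse phagocytes, with their receptors, 3 were called higher and 1 lower against DC, and 5 higher and 1 lower against T cells, in TDC. Their median log2 fold change over DC was 1.21. Sirpa, the phagocyte receptor of CD47, was at 1718, 5460 and 2928 CPM in TDC, against 659, 173 and 514 in DC and 1 read in T cells (log2 fold change over DC 2.91, SE 0.60, adjusted p = 0.00968). S1pr1, a receptor for sphingosine 1-phosphate, was at 11.04, 32.3 and 45.3 CPM in TDC, higher than in DC at 0.727, 0.0697 and 0 CPM (adjusted p = 0.00154) and lower than in T cells at 652, 509 and 401 CPM (adjusted p = 0.00263). Cd24a, which encodes a ligand of Siglec receptors, was lower in TDC than in DC, at 32.1, 32.95 and 51.4 CPM against 183, 169 and 172 CPM (adjusted p = 0.00141), and higher than in T cells, at 2.53, 3.11 and 3.35 CPM (adjusted p = 2.52e-05).

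Among 5 genes linked to shedding of these receptors, the 4 protease genes passed the filter, and Timp3 had no reads in any library. In TDC, 0 of these 4 were called higher and 1 lower against DC, and 3 higher against T cells. Their median log2 fold change over DC was 0.74. The lower gene was Adam8, a myeloid metalloproteinase, at 4.13, 16.003 and 58.1 CPM in TDC and 379.9, 152 and 481 in DC (adjusted p = 0.0217). Adam17, which cleaves MerTK, was at 90.01, 302 and 204 CPM in TDC, against 142, 82.2 and 169.9 in DC and 38.5, 37.7 and 36.3 in T cells, called against T cells (adjusted p = 0.00256) and not against DC (adjusted p = 0.414). Adam9 was likewise called against T cells (adjusted p = 0.000897) and not against DC (adjusted p = 0.0948). Adam10 was not called against DC (adjusted p = 0.411).

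Of 10 transcription factors linked to clearance genes, 6 were called higher and 0 lower against DC, and 7 higher and 0 lower against T cells, in TDC, with a median log2 fold change over DC of 4.89. Spic, the factor that red pulp macrophages require and also a marker above, was at 4467, 2246 and 1949 CPM in TDC, against 10.4, 18.4 and 21.8 in DC and 1 read in T cells (log2 fold change over DC 7.42, SE 0.59, adjusted p = 0.000117). Maf, a factor used by macrophages and T cells, had 132, 98.5 and 105 CPM in TDC, against 0.498, 1.53 and 0.0596 in DC (adjusted p = 0.000533) and 6.33, 10.5 and 4.95 in T cells (adjusted p = 0.00188). Spi1, which encodes PU.1, was at 492, 327 and 353 CPM in TDC and 686, 1061 and 532 in DC and was not called between them (adjusted p = 0.118), and T cells had no reads.

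**Figure D5:**
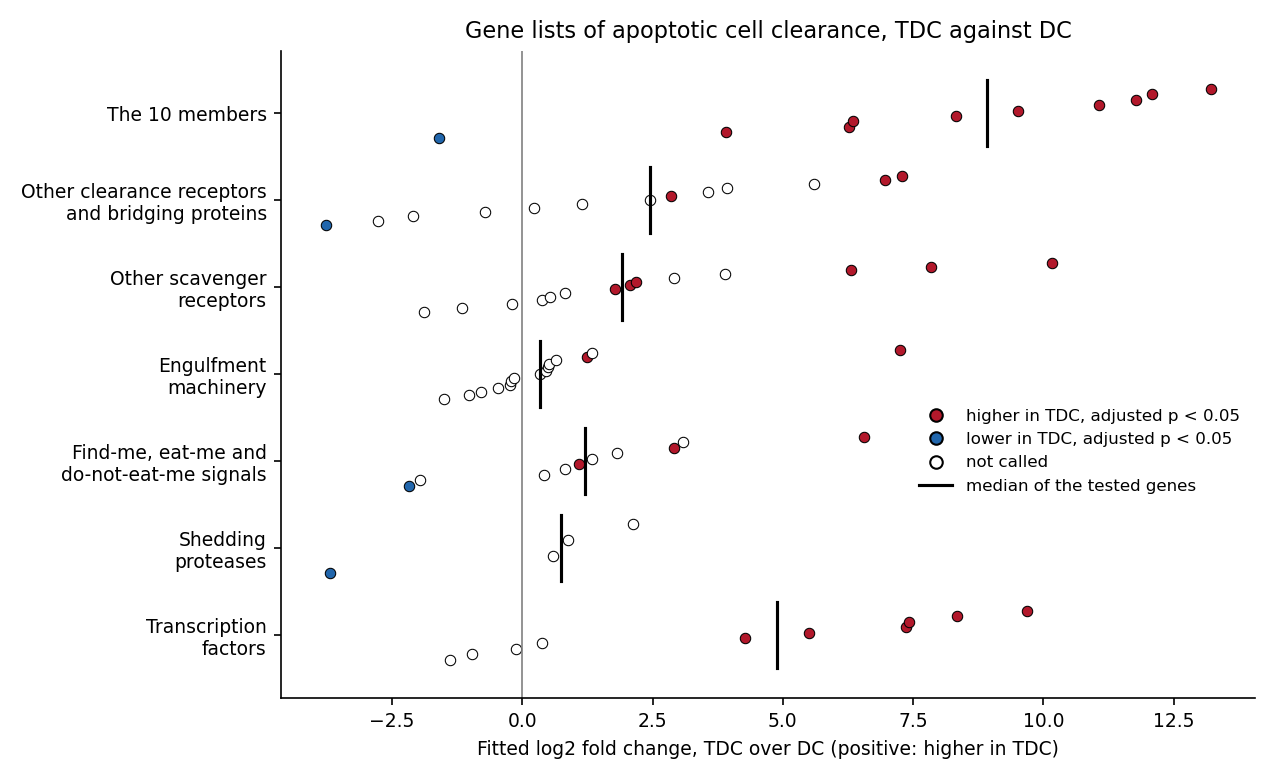
Fitted log2 fold change of TDC over DC for every tested gene of each list, coloured by its call, with a bar for the list median; fitted values of genes with no reads in a group, such as Gas6 and Trem2, depend on the prior count. The bar lies at 8.92 for the 10 genes, 4.89 for the transcription factors and 0.35 for the engulfment machinery.

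Across the 9 libraries, the genes most like each of the 10 by Pearson correlation of log2(CPM + 1) were sought among 9520 tested genes with at least 10 CPM in a group. The 3 most alike per gene gave 30 correlations of 0.990 to 0.9998, which describe 9 libraries in 3 separate groups and therefore mostly the difference between groups. Cd5l and Marco were each other's most alike gene (0.9996), and Stab2 was the gene most like Axl (0.992), followed by the iron exporter gene Slc40a1 (0.990). The genes most like Mertk, Timd4 and Gas6 were Dmpk, Hacd4 and Mcf2.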

How the data were processed

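RNA of 9 sorted pools was made into stranded Lexogen QuantSeq libraries, per the labels' protocols. The authors deposited raw read counts per gene symbol, not normalised, and that count table was the sole input. FastQC, MultiQC, Trimmomatic, STAR and featureCounts are named without versions in the submitters' processing notes, which also name the human build hg38 although samples and symbols are mouse. The sources used here give neither the annotation nor the strand setting, so overlapping genes are uncertain; loci come from GENCODE M21 (GRCm38) and promoters from RefSeq.

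Counts were tested with edgeR 4.0.16 (R 4.3.3) after filterByExpr (minimum count 10, minimum total 15), which kept 14708 genes, scaled by TMM, in 1 robust quasi-likelihood model holding the 3 groups (residual degrees of freedom 6), with p-values adjusted by Benjamini-Hochberg and called under 0.05. A fold against a group with no reads is a lower bound from 3 reads over that group. Ratios with a counting interval pool the reads of each group, whereas the adjusted p beside them is from the edgeR fit. SE is the fold change divided by the root of F. The test was run on simulated counts whose spread between replicates was set below that of these libraries (common biological coefficient of variation 0.588). Genes without reads in a group were not simulated as such, so that check does not cover them. Replicates of a group differed by chi-square values per degree of freedom of 67.0 to 273, so none repeated another. The labels do not say which mice entered each pool, so p-values measure the spread between pools. Alternatives were 3 scalings, 2 filters, DESeq2 1.42.0, limma-voom (limma 3.58.1), fits of single pairs, a replicate block and leaving out each library.

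The 10 genes, the lists and the motifs were chosen with earlier results of these data or the sequences known. The 10 genes are named in full. From each list the text names up to 3 genes by smallest adjusted p against DC and up to 2 against T cells; others are marked, and some genes that the rule names are not reported here.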

Additional observations from a re-analysis of the deposited data

How the results depend on the processing

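In 18 alternative settings, the 10 genes gave 513 fold changes, of which 495 kept direction and side of the threshold, 13 lost the call, 5 gained it and 0 turned direction. The counts of 9 genes higher in TDC than in DC and 10 higher than in T cells held when each library was left out (9 to 9 and 10 to 10), and so did 0 lower than T cells (0 to 0). The count lower than DC (Cd36) was 0 to 1, and that of genes higher in DC than in T cells was 3 to 7. Limma-voom and the fit of 2 groups each called 2 of the 10 higher in DC than in T cells, and the fit of 2 groups tested 3 of them after its filter. Over all genes, leaving out libraries gave 2501 to 3585 higher and 937 to 1945 lower in TDC than in T cells (3204 and 1654 with all), 897 to 1365 higher and 293 to 611 lower in TDC than in DC (1404 and 677), and 1724 to 2492 higher and 870 to 1384 lower in DC than in T cells (2269 and 1237). Without TDC replicate 2, 897 genes were higher and 293 lower than in DC, and 937 lower than in T cells; genes lower than in DC were 447 without TDC replicate 1 and 418 without DC replicate 1, and those lower than in T cells 1030 without T cell replicate 2. With library size as the only scaling, 3321 genes were lower in TDC than in T cells and 1886 in DC than in T cells. The higher share of calls was then 42.9%, 53.1% and 50.2% for TDC against T cells, TDC against DC and DC against T cells (66.0%, 67.5% and 64.7% with TMM), with medians shifted by -0.61, -0.29 and -0.29. Genes lower in TDC than in DC numbered 1234 with DESeq2 and 1024 with limma-voom. The cause was not tested. Same-numbered libraries deviated from their group means with correlations of -0.53 to 0.36, over 0.1 in 3 of 9 pairs. Such correlations cannot exclude pairing, because shifts by transcript length, opposite in TDC and DC, also enter them. Same-numbered libraries share a code in the labels whose meaning is not stated, and the same number of pooled mice. The main fit did not pair the samples, and the replicate block was an alternative. With the replicate block, 431 genes and 0 of the 10 were lower in TDC than in DC (Cd36 adjusted p = 0.0597).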
